A study of Mus musculus with 7 samples.

Results

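The enzymes described here make, recycle and use the tripeptide glutathione, or remove superoxide and peroxides. The set was chosen by name from a table of 12958 gene symbols: every numbered symbol of the glutathione transferase classes alpha, kappa, mu, omega, pi, theta and zeta, of the microsomal transferases, glutathione peroxidases, peroxiredoxins, superoxide dismutases and thioredoxin reductases, and in addition Gclc, Gclm, Gss, Gsr, Nqo1 and Hmox1. The rule found 40 genes. In the mouse annotation GENCODE M21, 52 protein-coding genes fit the rule, and the other 12, among them Gsta1, Gstm3, Gstp2 and Mgst2, were not analysed here. RNA came from isolated glomeruli, the filtering tufts of the kidney, of 7 male mice of the strain BALB-C aged 14 weeks, with 1 library per animal. In the knockdown group (n = 3) a transgene encoded an siRNA to Shroom3, an actin-binding protein of cell junctions, and the control group (n = 4) were littermates that lacked it. Doxycycline was given to all animals, controls included, starting at an age of 8 weeks and lasting 6 weeks, by way of both the food and the water. The promoter that drives the transgene is not given in the sources used here.

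Glutathione carries a reactive cysteine, and glutathione transferases attach it to electrophiles so that the products can be exported and, in the kidney, broken down to mercapturic acids at the brush border of the proximal tubule. Superoxide dismutases turn superoxide into hydrogen peroxide, which glutathione peroxidases, peroxiredoxins and catalase remove, and glutathione reductase and thioredoxin reductases restore the spent thiols with NADPH. Many of these genes are switched on by the transcription factor Nrf2 (gene Nfe2l2), which Keap1 holds back in unstressed cells and which binds antioxidant response elements in DNA. Proximal tubule cells are known for high levels of many glutathione enzymes, and glomerular preparations can hold tubule fragments.

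Each value is a log2 expression value as deposited by the authors, and each difference below is knockdown over control on that log2 scale. Read depth and counting error are unknown, since the tables hold no counts. A gene is said to have risen or fallen where limma's adjusted p (Benjamini-Hochberg over all 12958 genes) was below 0.05. Library medians lay between 9.15 and 9.16. Titles began with G in 5 libraries (2 knockdown, 3 control) and with CB6 in 2 (1 knockdown, 1 control), and what this difference in titles stands for is not given. Shroom3 itself held 10.80, 10.91 and 10.89 in the knockdown libraries, against 10.94, 10.85, 11.36 and 11.06 in the control libraries (log2 fold change -0.19, SE 0.11; limma adjusted p = 0.417; -0.09 without control replicate 3). The groups overlapped for the targeted transcript, and the libraries are called by their labels throughout.

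Of the 40 genes, 5 changed: the transferases Gstm5 and Gstt1 and the peroxidase Gpx6 rose, and the transferases Gstm1 and Gsta2 fell. This is 12.5% of the 40, where 3.02% of all genes passed the same threshold (0.996% higher, 2.02% lower). When title style entered as a covariate only Gstm5 passed, 1 of the 40 beside 1.47% of all genes. The transferases held 4 of the 5 calls among their 17 genes, and the other 23 genes held 1. Leaving out Gpx1, which held fill-in values, 26 of 39 log2 fold changes lay within 0.25 of 0. This is a smaller share than over all genes, where 10586 of 12958 did. The median of the 39 was -0.07, where the median over all genes was 0.02. Knockdown and control libraries did not overlap for 12 of the 40 genes (30.0%), 8 higher and 4 lower, against 18.4% of all genes (10.8% higher, 7.55% lower). At an unadjusted p under 0.05 the set held 13 genes, again beside 18.4% of all genes.

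**Figure D1:**
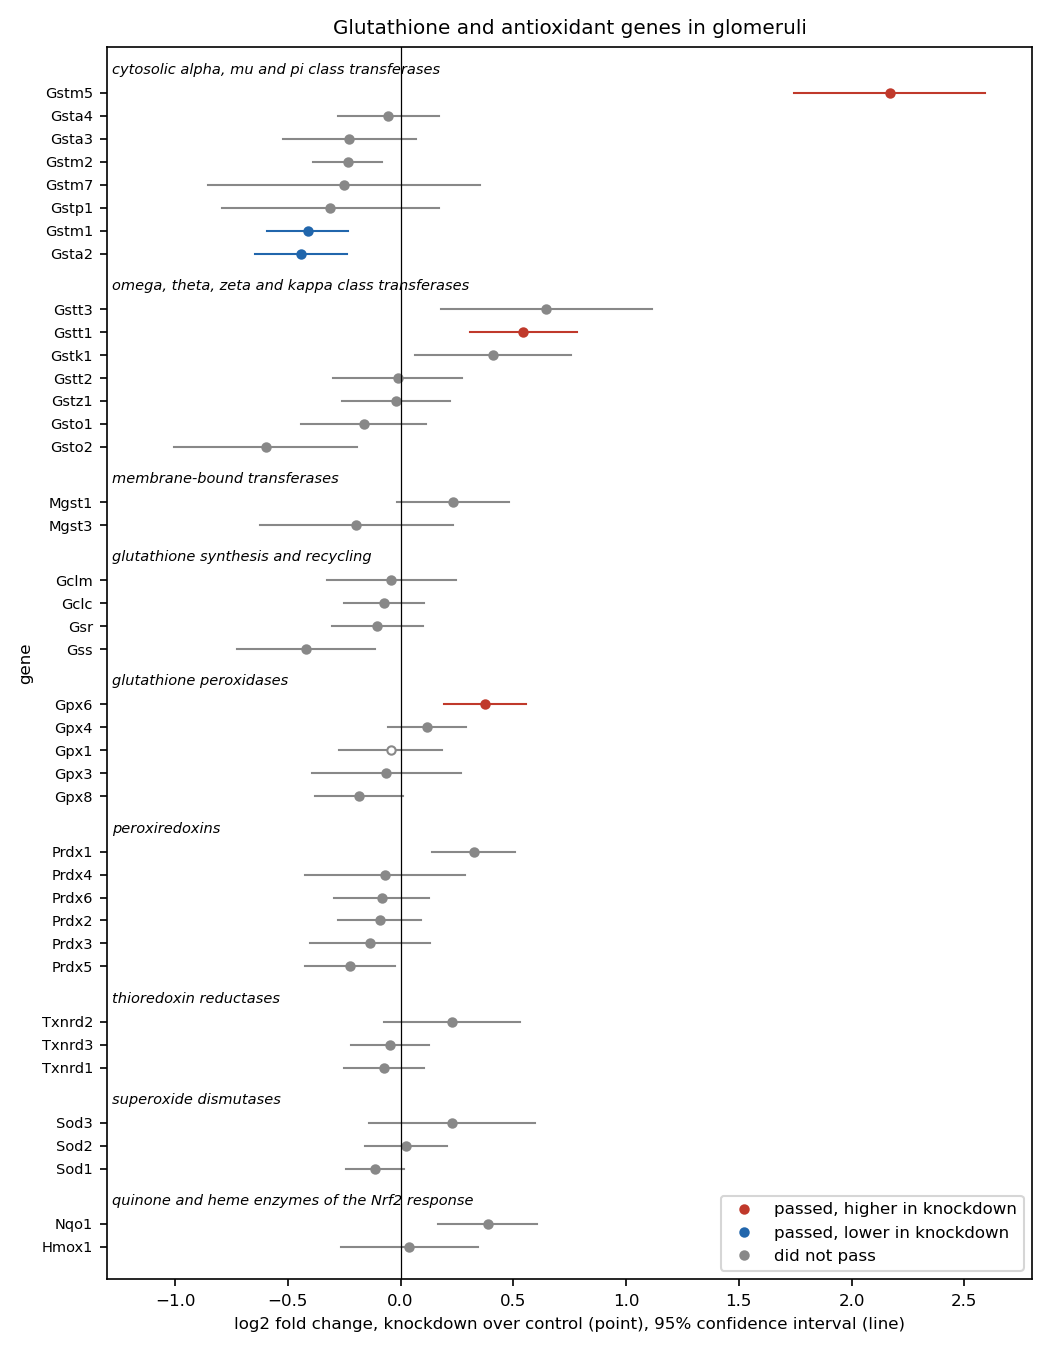
Log2 fold change of each of the 40 genes in knockdown over control glomeruli (x axis; points, with 95% confidence intervals from limma as lines), grouped by role. Gstm5 stands alone at 2.17 while the other 39 points lie between -0.60 and 0.65; the open point is Gpx1, whose values are fill-in values.

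Gstm5 and Gstm1 are shown by their promoters because they sit in one gene cluster and changed in opposite directions, and Gstt1 because it rose in a second cluster. The windows are RefSeq promoters on GRCm38.p6, the C57BL/6J reference and not the strain of these mice, read 5′ to 3′ on the gene's strand from 250 bases before to 50 bases after the annotated start. Capitals mark matches, on either strand, to the core of the antioxidant response element (TGACNNNGC) or to TATAAA; the motifs did not overlap here.
Gstm5: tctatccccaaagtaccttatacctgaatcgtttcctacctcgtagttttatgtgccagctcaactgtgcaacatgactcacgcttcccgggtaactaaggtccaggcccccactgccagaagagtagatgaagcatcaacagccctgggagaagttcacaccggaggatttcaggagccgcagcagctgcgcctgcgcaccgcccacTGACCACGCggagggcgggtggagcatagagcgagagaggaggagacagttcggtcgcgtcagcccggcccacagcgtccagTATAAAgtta
Gstm1: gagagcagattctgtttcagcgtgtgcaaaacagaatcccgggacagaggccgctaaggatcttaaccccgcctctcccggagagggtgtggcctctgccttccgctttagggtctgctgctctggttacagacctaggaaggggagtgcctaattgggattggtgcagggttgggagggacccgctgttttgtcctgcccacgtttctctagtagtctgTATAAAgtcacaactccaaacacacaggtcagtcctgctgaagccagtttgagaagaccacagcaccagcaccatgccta
Gstt1: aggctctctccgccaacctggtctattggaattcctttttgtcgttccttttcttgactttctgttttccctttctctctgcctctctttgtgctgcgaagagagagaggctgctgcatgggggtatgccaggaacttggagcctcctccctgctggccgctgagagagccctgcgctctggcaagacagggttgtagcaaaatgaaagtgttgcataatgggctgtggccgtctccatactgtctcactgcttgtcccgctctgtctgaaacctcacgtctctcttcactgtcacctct
The Gstm5 window is chr3:107895604-107895903 on the plus strand, the Gstm1 window chr3:108017769-108018068 on the minus strand (the window of 1 of its annotated starts), and the Gstt1 window chr10:75797682-75797981 on the minus strand. The capitals in Gstm5 are a match to the antioxidant core beginning 42 bases before the start and a TATAAA inside the transcribed part. Those in Gstm1 are a TATAAA beginning 30 bases before the start, and the Gstt1 window held neither motif. Of the 33 genes of the set with a RefSeq window, 8 (24.2%) held the antioxidant core in at least 1 window, against 14.0% of all 27025 genes with a window: Gstm5, Gstm7, Gsta3, Gclm, Prdx1, Mgst1, Txnrd1 and Sod1. TATAAA was also found in 8 of the 33 genes (24.2%), against 15.7% of all genes. A match is a run of letters only, and of these 8 genes with the antioxidant core only Gstm5 passed the test.

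Gstm5, a mu class transferase (ENSMUSG00000004032.10; chromosome 3, 107895821 to 107898686, plus strand, on GRCm38), gave the widest difference of the set. Its log2 expression was 11.20, 10.87 and 10.63 in the knockdown libraries, against 8.57, 9.19, 8.48 and 8.68 in the control libraries. Each knockdown library lay far above the highest control library. Knockdown glomeruli averaged 10.90 ± 0.29 (SD, n = 3), and the mean of the control glomeruli was 8.73 ± 0.31 (SD, n = 4), which gives a log2 fold change of 2.17 (SE 0.19, 95% confidence interval 1.74 to 2.59) or 4.50-fold (limma adjusted p = 0.00128). The difference was 2.29 within the libraries titled G and 1.95 within the CB6 pair. Gstm5 passed in each of 14 other fits, with limma adjusted p from 0.000489 to 0.0194. None of the 50-base stretches of its annotated transcripts occurred in the same orientation in a transcript of another gene. Reads of that length from this reference could thus be assigned to it alone if their strand was known. Matches on the opposite strand were not searched. The read length and the use of strand are not given, and the first 393 bases of Gstm5 overlap 4933431E20Rik on the opposite strand, which differed by 0.07 and did not pass (limma adjusted p = 0.837).

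The other 3 mu class genes of the tables lie within 122 kb with Gstm5 on chromosome 3 and had negative differences. Gstm1, which conjugates a wide range of electrophiles (ENSMUSG00000058135.12; chromosome 3, 108012255 to 108017973, minus strand), held 10.46, 10.58 and 10.57 in knockdown libraries, against 10.95, 10.77, 11.10 and 10.98 in control libraries. All knockdown values lay below all control values. Its log2 fold change was -0.41 (SE 0.08, 95% confidence interval -0.59 to -0.23; limma adjusted p = 0.0323), with -0.42 within the libraries titled G and -0.41 within the CB6 pair. Gstm2, its close relative, held 11.05, 11.26 and 11.08 in knockdown, against 11.31, 11.35, 11.35 and 11.45 in control libraries. These groups did not overlap either, but Gstm2 did not pass (-0.24, SE 0.07; limma adjusted p = 0.104). Gstm7, which overlapped widely between the groups, differed by -0.25 (SE 0.26; limma adjusted p = 0.671), with 0.19 within the libraries titled G and -1.32 within the CB6 pair. Of the 50-base stretches of the Gstm1 transcripts 18.9% also occurred in transcripts of other genes, among them Gstm3 and the pseudogene Gstm2-ps1, and 5.65% of those of Gstm2, so their reads may have been shared.

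**Figure D2:**
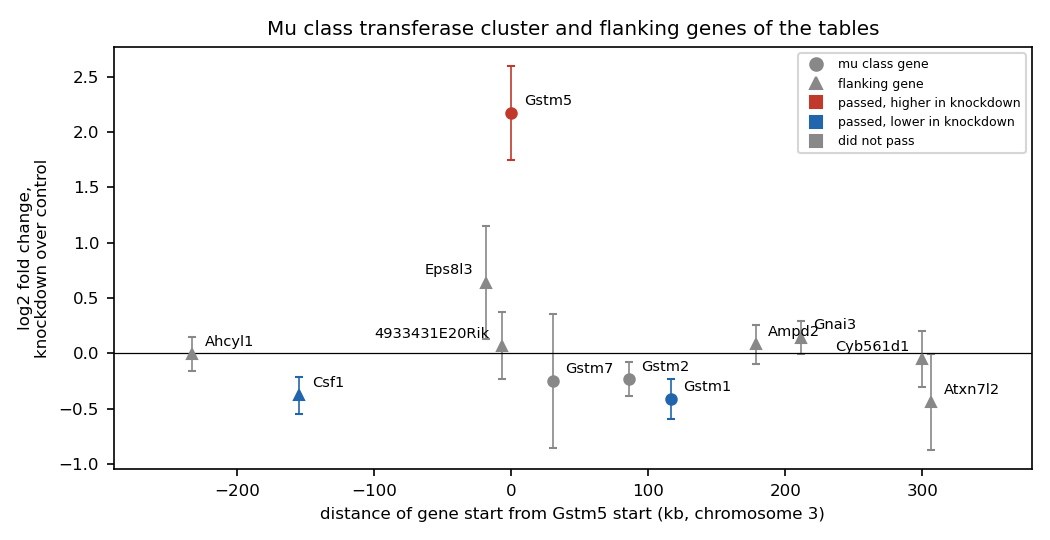
Log2 fold change with 95% confidence interval (y axis) of the mu class genes (circles) and of the 4 nearest measured genes on either side of the cluster (triangles), against the distance of each gene's lower coordinate from that of Gstm5 in kb (x axis). Gstm5 is at 2.17, Gstm7, Gstm2 and Gstm1 are at -0.41 to -0.24, and of the flanking genes Csf1 at -0.38 passed.

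Around the cluster, a look added after the values of the set were seen, 1 of 8 flanking genes passed, beside 3.02% of all genes. Csf1, which encodes the macrophage growth factor, fell (-0.38; limma adjusted p = 0.0342), and was not followed in the other fits. Eps8l3, the neighbour on the side of Gstm5, differed by 0.64 with a wide interval (95% confidence interval 0.13 to 1.15) and did not pass (limma adjusted p = 0.177). Ahcyl1, Ampd2, Gnai3, Cyb561d1 and Atxn7l2 differed by -0.01, 0.08, 0.14, -0.05 and -0.44 in that order, and none passed.

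Among the alpha and pi class transferases Gsta2 fell. Alpha class enzymes also reduce lipid hydroperoxides. Gsta2 (ENSMUSG00000057933.10; chromosome 9, 78331018 to 78355788, minus strand) held 8.39, 8.20 and 8.23 in knockdown libraries, against 8.65, 8.73, 8.66 and 8.82 in control libraries, again without overlap. The log2 fold change was -0.44 (SE 0.09, 95% confidence interval -0.65 to -0.24; limma adjusted p = 0.0383), with -0.38 within the libraries titled G and -0.60 within the CB6 pair. As 49.8% of the 50-base stretches of its transcripts occurred in transcripts of other genes, chiefly Gsta1 and the predicted genes Gm10639 and Gm3776, the value may stand for several alpha class genes. Gsta3, Gsta4 and Gstp1 differed by -0.23, -0.05 and -0.31 with overlapping groups and did not pass (limma adjusted p = 0.393, 0.821 and 0.480). Gsta4 is the class member known for conjugating 4-hydroxynonenal, a product of lipid peroxidation. For Gstp1, 33.7% of the stretches were shared with Gstp2 and a pi class pseudogene.

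Of the 7 omega, theta, zeta and kappa class genes, 3 lay higher in every knockdown library than in any control library. These were the theta class genes Gstt1 and Gstt3 and the kappa class gene Gstk1, and 1 of the 3 passed. Over all genes, 10.8% lay higher in this way and 0.996% rose. Gstt1, which acts on small halogenated compounds (ENSMUSG00000001663.10; chromosome 10, 75783813 to 75798584, minus strand), held 10.66, 10.68 and 10.58 in knockdown, against 9.83, 10.28, 10.20 and 10.08 in control libraries. The knockdown libraries were close together and above all controls, of which control replicate 1 was the lowest. The log2 fold change was 0.54 (SE 0.10, 95% confidence interval 0.31 to 0.78; limma adjusted p = 0.0322), with 0.57 within the libraries titled G and 0.50 within the CB6 pair. None of its 50-base stretches was shared. Gstt3, 1 of the other genes in its 63.3 kb cluster, held 6.46, 6.34 and 6.91 in knockdown, against 5.97, 6.24, 5.99 and 5.49 in control libraries, and did not pass (0.65, SE 0.20; limma adjusted p = 0.138). Of its stretches 12.5% were shared, mostly with the overlapping Gm20441. The third gene of the cluster, Gstt2, differed by -0.01 with overlapping groups. Gstk1, the mitochondrial and peroxisomal kappa class enzyme, differed by 0.41 (SE 0.15; limma adjusted p = 0.199).

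The omega and zeta class genes did not pass. Gsto2, an omega class enzyme with dehydroascorbate reductase activity, held 5.59, 5.26 and 5.12 in knockdown, against 5.97, 5.94, 5.57 and 6.21 in control libraries. The groups overlapped only in that knockdown replicate 1 lay above control replicate 3, and the gene did not pass (-0.60, SE 0.18; limma adjusted p = 0.118). Gsto1 differed by -0.16 and Gstz1, of tyrosine breakdown, by -0.02. Both omega genes lie within Cfap43 on the opposite strand, which differed by -0.27 and did not pass. The membrane-bound transferases split: Mgst1 held 6.32, 6.41 and 6.46 in knockdown, against 6.22, 6.28, 6.09 and 6.07 in control libraries, without overlap (0.23, SE 0.11; limma adjusted p = 0.297), and Mgst3 differed by -0.20 with overlap (limma adjusted p = 0.636).

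**Figure D3:**
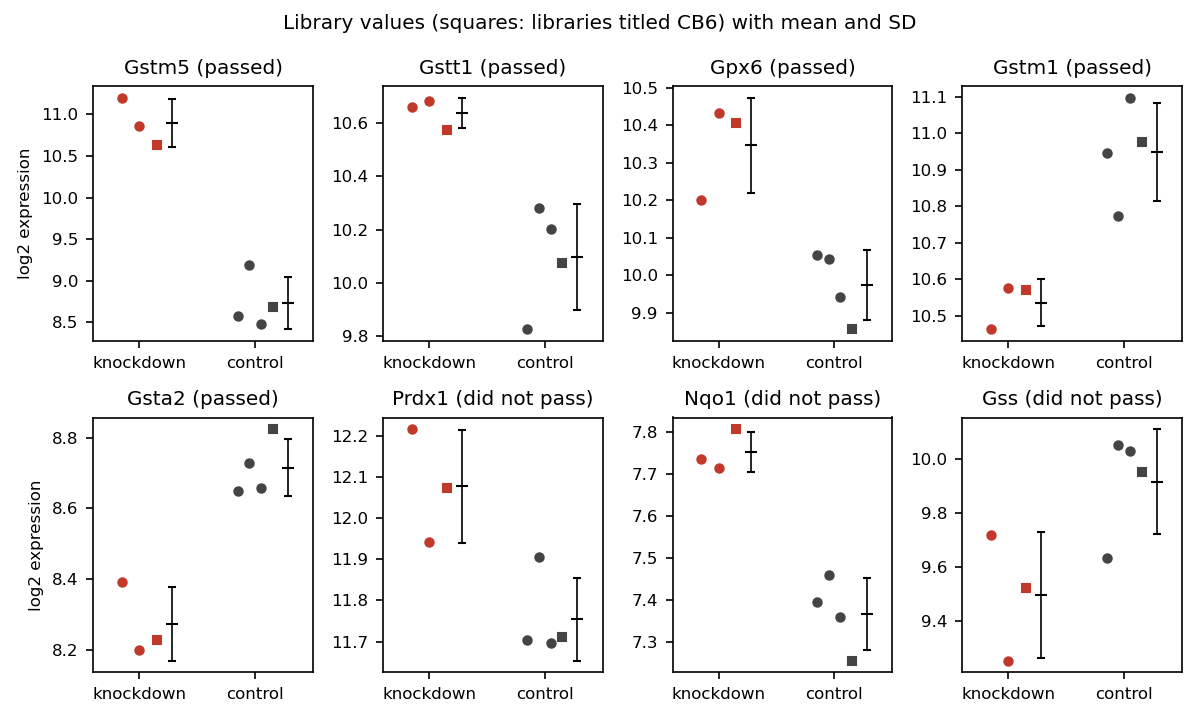
Log2 expression (y axis, with its own range in each panel) of each knockdown and control library for the 5 genes that passed and for Prdx1, Nqo1 and Gss, which did not; squares are the libraries titled CB6, and the bars give the mean and SD of each group. The groups do not overlap in the first 7 panels and overlap for Gss.

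The genes that make and recycle glutathione did not change by this test. All 4 log2 fold changes were negative, 0 of 4 passed limma's adjusted p and 1, Gss, had an unadjusted p under 0.05. Gss, the glutathione synthetase of the second step, held 9.72, 9.25 and 9.52 in knockdown, against 9.63, 10.05, 10.03 and 9.95 in control libraries. Only control replicate 1 lay within the knockdown range, and the log2 fold change was -0.42 (SE 0.13, 95% confidence interval -0.72 to -0.11; limma adjusted p = 0.144). The annotated span of Gss, introns included, overlaps that of Acss2 on the opposite strand over 22544 bases. Acss2 differed by -0.32 (limma adjusted p = 0.144). Overlap of exons was not examined, so whether reads of the 2 genes could be mixed there is not known. Gclc and Gclm, the catalytic and modifier subunits of the rate-limiting ligase, differed by -0.07 (95% confidence interval -0.25 to 0.10) and -0.04 (-0.33 to 0.25). Gsr, which reduces oxidised glutathione, differed by -0.10 (-0.30 to 0.10).

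Among the glutathione peroxidases Gpx6 rose. This member of the family is described mainly from the olfactory epithelium and is a selenoprotein in humans but not in mice. Gpx6 (ENSMUSG00000004341.8; chromosome 13, 21312125 to 21319624, plus strand) held 10.20, 10.43 and 10.41 in knockdown, against 10.05, 10.04, 9.94 and 9.86 in control libraries. The lowest knockdown library lay 0.15 above the highest control library. The log2 fold change was 0.37 (SE 0.08, 95% confidence interval 0.19 to 0.56; limma adjusted p = 0.0479), just under the threshold, with 0.30 within the libraries titled G and 0.55 within the CB6 pair. Gpx4, which reduces lipid hydroperoxides in membranes, differed by 0.12 (SE 0.08; limma adjusted p = 0.461), and 34.7% of its stretches were shared with a pseudogene. Gpx3, the secreted plasma enzyme that the proximal tubule makes, held 12.26, 12.00 and 11.78 in knockdown, against 11.88, 12.20, 11.88 and 12.35 in control libraries (-0.06, SE 0.14; limma adjusted p = 0.862). Its difference was 0.14 within the libraries titled G and -0.57 within the CB6 pair. Gpx8, of the endoplasmic reticulum, lay lower in every knockdown library (-0.18, SE 0.09; limma adjusted p = 0.296).

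Gpx1, the widespread cytosolic selenoenzyme, cannot be read from these tables. It held 4.49, 4.51 and 4.38 in knockdown, against 4.47, 4.47, 4.47 and 4.61 in control libraries. Across the 5 G libraries these values followed, within 0.003, the same offsets from library to library as those of the other genes in a group of 108, and such values are called fill-in values here. Gpx1 was the only 1 of the 40 genes in that group, and its values are not read as expression.

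None of the 6 peroxiredoxins, 3 thioredoxin reductases or 3 superoxide dismutases passed limma's adjusted p, and 2, 0 and 0 of them had an unadjusted p under 0.05. Prdx1, a cytosolic peroxiredoxin and a known Nrf2 target, held 12.22, 11.94 and 12.07 in knockdown, against 11.70, 11.91, 11.70 and 11.71 in control libraries. The groups did not overlap, by a narrow margin between knockdown replicate 2 and control replicate 2. The log2 fold change was 0.32 (SE 0.08, 95% confidence interval 0.14 to 0.51; limma adjusted p = 0.0747), and without control replicate 2 it was 0.37 and passed (limma adjusted p = 0.0392). The other 5 peroxiredoxins, Prdx2 to Prdx6, differed by -0.07 to -0.23. Prdx5, found in several organelles, had the smallest p of these (-0.23, SE 0.09; limma adjusted p = 0.217).

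The thioredoxin reductases are selenoenzymes of the cytosol (Txnrd1), mitochondria (Txnrd2) and testis (Txnrd3). Txnrd1 differed by -0.07 (95% confidence interval -0.25 to 0.11) and Txnrd3 by -0.05 (-0.22 to 0.12). Txnrd2 held 8.23, 7.92 and 7.81 in knockdown, against 7.86, 7.65, 7.62 and 7.90 in control libraries, with overlap (0.23, SE 0.13; limma adjusted p = 0.405). The difference was 0.10 without knockdown replicate 1 and 0.37 in the G libraries alone. Of the dismutases, the cytosolic Sod1 held 10.37, 10.24 and 10.29 in knockdown, against 10.45, 10.41, 10.35 and 10.44 in control libraries; knockdown replicate 1 lay above control replicate 3, and the log2 fold change was -0.11 (SE 0.06; limma adjusted p = 0.323). The mitochondrial Sod2 differed by 0.02 (95% confidence interval -0.16 to 0.20). The secreted Sod3 held 12.42, 12.32 and 11.88 in knockdown, against 11.74, 12.11, 11.80 and 12.27 in control libraries, and its difference was 0.49 within the libraries titled G and -0.39 within the CB6 pair (0.23 over all libraries, SE 0.16; limma adjusted p = 0.505).

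Nqo1 and Hmox1 are the quinone and heme enzymes most often used as readouts of Nrf2. Nqo1 held 7.74, 7.71 and 7.81 in knockdown, against 7.40, 7.46, 7.36 and 7.25 in control libraries. The groups did not overlap, and Nqo1 missed the threshold (0.39, SE 0.10, 95% confidence interval 0.17 to 0.60; limma adjusted p = 0.0732); it passed in 1 of 13 other fits, without the intensity trend (limma adjusted p = 0.0381). Hmox1 held 8.59, 8.33 and 8.26 in knockdown, against 8.11, 8.54, 8.29 and 8.49 in control libraries, with overlapping groups (0.04, SE 0.13; limma adjusted p = 0.914).

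The 4 calls other than Gstm5 depended on single libraries and on how the titles were treated. When title style entered the fit as a covariate, and when the fit was limited to the 5 G libraries, Gstm5 was the only gene of the 40 past the threshold. Without knockdown replicate 2, knockdown replicate 3 or control replicate 4, Gstm5 was likewise the only 1. Without knockdown replicate 1, Gpx6 passed beside Gstm5, without control replicate 1, Gstt1 did, and without control replicate 3, Gstt1 and Gstm1 did. Without control replicate 2, Gstt1, Gstm1 and Prdx1 passed beside Gstm5. Over the libraries left out in turn the limma adjusted p ran from 0.0207 to 0.138 for Gstt1, from 0.0405 to 0.183 for Gpx6, from 0.0118 to 0.112 for Gstm1 and from 0.0558 to 0.156 for Gsta2. Their log2 fold changes kept their signs, running from 0.45 to 0.61, 0.33 to 0.45, -0.47 to -0.36 and -0.50 to -0.41 for these 4 genes in that order. Gpx6 also missed the threshold after median scaling (limma adjusted p = 0.0512), and Gstt1, Gstm1 and Gpx6 did without the intensity trend (limma adjusted p = 0.0532, 0.0575 and 0.0715).

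In the same comparison, markers moved both for cells outside the glomerular tuft and for podocytes and mesangial cells of the tuft. Over all genes 0.996% rose and 2.02% fell by limma's adjusted p, and 18.4% had an unadjusted limma p under 0.05. All 30 proximal tubule markers were measured, 10 fell and 1, Pck1, rose (36.7% of the list; median log2 fold change -0.34). Their summed level ran from 18.55 to 18.90 in knockdown and from 18.74 to 19.12 in control libraries on the log2 scale, and the lowest marker value in any library was 7.44. Cyp2e1, a cytochrome P450, fell by 3.26 and the urate transporter Slc22a12 fell by 2.26, while Pck1 of gluconeogenesis rose by 1.49. Of 23 podocyte markers 4 fell (median -0.29; summed level 18.34 to 18.57 in knockdown and 18.29 to 18.74 in control libraries), and of 17 measured markers of the distal nephron and collecting duct 2 rose (median 0.16; summed level 16.88 to 17.15 in knockdown and 16.71 to 17.11 in control libraries). Of 11 measured mesangial markers 2 fell (median -0.16; summed level 14.27 to 14.51 in knockdown and 14.39 to 14.85 in control libraries), and 0 of 15 endothelial markers passed limma's adjusted p (4 at an unadjusted p under 0.05; median -0.22; summed level 16.59 to 16.91 in knockdown and 16.72 to 17.23 in control libraries). No parietal marker of 8, smooth muscle or renin cell marker of 8 or measured leukocyte marker of 6 passed limma's adjusted p (1, 3 and 0 at an unadjusted p under 0.05). Of 3 measured red cell markers Alas2 fell (-0.54) and Slc4a1, which collecting duct cells also express, rose (0.86). Cyp2e1, Pck1 and Slc22a12 passed in each of 14 other fits, Slc4a1 in 10 of 14 and Alas2 in 4 of 13. The counts of the other marker calls moved with the fit. Leaving out 1 library gave 5 to 11 lower proximal tubule markers (5 without knockdown replicate 2 and 6 without knockdown replicate 3) and 7 with title style as a covariate. It gave 1 to 9 lower podocyte markers, with 9 without control replicate 2, 1 without knockdown replicate 2, and 2 without knockdown replicate 1, knockdown replicate 3 or control replicate 4. No mesangial marker passed limma's adjusted p without any 1 library other than control replicate 2 (2 to 4 at an unadjusted p under 0.05), where 3 were lower. No distal marker passed limma's adjusted p without knockdown replicate 2, knockdown replicate 3 or control replicate 4 (3 at an unadjusted p under 0.05 in each), and 1 passed when knockdown replicate 1, or control replicate 1 or 3, was left out. In these bulk samples fewer cells of a type and less RNA per cell cannot be told apart, and the part of the tubule content in the changes of the transferases and of Gpx6 was not tested.

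Genes that surround the set were counted in 8 lists, 115 measured genes of 133 listed, of which 1 rose and 3 fell. This is 3.48%, beside 3.02% of all genes. The calls lay in 2 of the 8 lists.

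**Figure D4:**
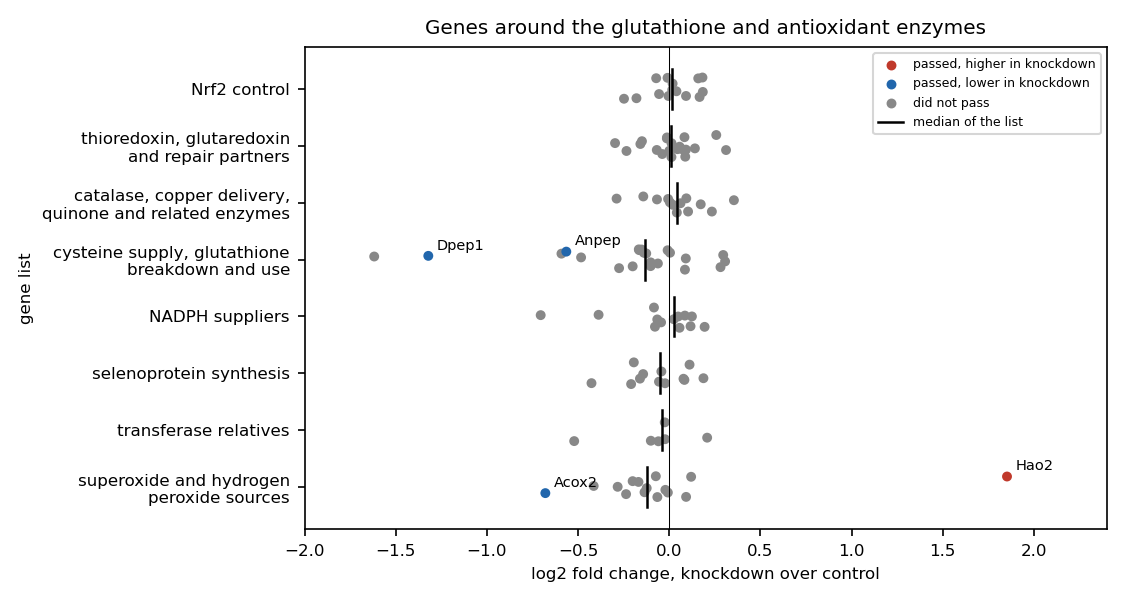
Log2 fold change, knockdown over control (x axis), of each measured gene of the 8 lists (rows), with the list median as a vertical bar and the genes that passed named. The 4 genes past the threshold are Hao2 at 1.85 and Dpep1, Acox2 and Anpep at -1.32 to -0.56, and the other lists hold none.

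Glutathione breakdown held 2 of them. Of 22 measured genes of cysteine supply, glutathione breakdown and use, Dpep1 and Anpep fell (median -0.13), both peptidases of the tubule brush border that act on the cysteinyl-glycine left from glutathione. Dpep1 held 9.89, 9.22 and 9.21 in knockdown, against 10.34, 11.02, 10.52 and 11.17 in control libraries (-1.32, SE 0.23; limma adjusted p = 0.0248). Anpep held 10.33, 10.23 and 10.22 in knockdown, against 10.57, 11.06, 10.73 and 10.94 in control libraries (-0.56, SE 0.11; limma adjusted p = 0.0338). The groups of both genes were separate. Nat8, named after its value was seen as the lowest point of the list, forms mercapturic acids in the last step and did not pass (-1.62; limma adjusted p = 0.0503). Nat8 did pass after quantile normalization, without knockdown replicate 1 and without the fill-in genes (limma adjusted p = 0.0433, 0.0311 and 0.0367), and in the other fits its limma adjusted p reached 0.244. In the libraries titled G alone neither Dpep1 nor Anpep passed (limma adjusted p = 0.236 and 0.328), and Anpep did not with title style as a covariate either (limma adjusted p = 0.0714). Without a library in turn, Dpep1 was lost without knockdown replicates 2 and 3 and control replicate 4 (limma adjusted p = 0.116, 0.0962 and 0.0605), with log2 fold changes of -1.21, -1.21 and -1.19. Anpep was lost without knockdown replicates 1, 2 and 3 (limma adjusted p = 0.0814, 0.140 and 0.124) and without control replicates 3 and 4 (limma adjusted p = 0.0527 and 0.107), with log2 fold changes between -0.60 and -0.53. It was also lost without the intensity trend (limma adjusted p = 0.0562).

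The list of superoxide and hydrogen peroxide sources held the other 2 calls among 15 measured genes (median -0.12). Hao2, a peroxisomal hydroxyacid oxidase that releases hydrogen peroxide, held 12.54, 12.42 and 11.82 in knockdown, against 10.34, 10.73, 9.99 and 10.57 in control libraries (1.85, SE 0.21; limma adjusted p = 0.00439). Acox2, a peroxisomal oxidase of branched acyl chains and bile acid precursors, held 9.16, 8.83 and 9.10 in knockdown, against 9.75, 9.97, 9.39 and 9.73 in control libraries (-0.68, SE 0.14; limma adjusted p = 0.0407). The groups of both genes were separate. Hao2 passed in each of 14 other fits. Acox2 missed the threshold without the intensity trend (limma adjusted p = 0.0575), with the title covariate (limma adjusted p = 0.0827) and in the G libraries alone (limma adjusted p = 0.297), and it passed without control replicate 3 only (limma adjusted p = 0.0151) when a library was left out, with limma adjusted p up to 0.158 without the others.

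The other 6 lists held no gene past limma's adjusted p. Of 14 measured genes of Nrf2 control (4 at an unadjusted p under 0.05; median 0.02), Sqstm1, which binds Keap1, and the chromatin factor Bptf had the smallest p, with differences of -0.25 and 0.18 (limma adjusted p = 0.0753 and 0.125). Of 20 thioredoxin, glutaredoxin and repair genes (3 at an unadjusted p under 0.05; median 0.01), these were Srxn1, which repairs overoxidised peroxiredoxins, at 0.26 and Msra, a methionine sulfoxide reductase, at -0.30. Of 13 catalase, copper delivery and quinone genes (2 at an unadjusted p under 0.05; median 0.04), these were Pxdn, a peroxidase of basement membranes, at -0.29 and the carbonyl reductase Cbr1 at 0.23. Of 13 NADPH suppliers (2 at an unadjusted p under 0.05; median 0.02), Me1 and Idh1 differed by -0.71 and -0.39, and Me1 lay just above the threshold (limma adjusted p = 0.0552). Of 12 selenoprotein synthesis genes (2 at an unadjusted p under 0.05; median -0.05), Selenop, the plasma selenium carrier, differed by -0.43 (limma adjusted p = 0.0630) and Secisbp2 by 0.19. Of 6 transferase relatives outside the rule (1 at an unadjusted p under 0.05; median -0.04), Alox5ap, the 5-lipoxygenase activating protein, differed by -0.52 (limma adjusted p = 0.0722) and Aimp2 by 0.21. In other fits Me1 and Selenop passed in 2 of 14 each, Sqstm1 and Pxdn in 1 of 14 each, and Alox5ap in 1 of 13.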

How the data were processed

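For each library the authors deposited a table of log2 values, 1 per gene symbol; the base of the logarithm is not stated and was read as 2. Reads were aligned with BWA to mm10, per the submitters' processing notes. Read length, strand use, counting and normalization are not stated in the labels or tables. Across the 12958 genes, which are not independent, the deviations of the 2 CB6 libraries from the means of their groups correlated at -0.958. So where 1 of these libraries lay above its group mean, the other mostly lay below its own. Whether the 2 title styles had been adjusted to each other before deposit was not tested. Had they been, the p-values of the fit used here, which leaves title style out, would be too small. That fit called 391 genes, against 191 with title style as a covariate.

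The 3 knockdown libraries were compared with the 4 control libraries on all genes with limma (version 3.58.1, R 4.3.3), using its intensity trend. P-values were adjusted by Benjamini-Hochberg, with a threshold of 0.05. Requiring a value above the single lowest value of all libraries in 3 or more libraries left out 0 genes. The procedure was tested on simulated data with independent noise in each library and no title styles. That test therefore says nothing about p-values after an adjustment made before deposit. The design text counts animals as it counts libraries, so library and animal are the same unit. The p-values measure the spread of the deposited values between animals, as it stood after any adjustment made before deposit.

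The genes, lists and tests were chosen with earlier results of these data known. Every gene of the set may be named; in full, those past the threshold and, in roles without one, that with the smallest p. Of each pathway list up to 4 genes past the threshold, or else the 2 with the smallest p, are named, of marker lists up to 4 past it, and Shroom3. Library values of further genes of the set, and the genes flanking the mu class cluster, were added after values were seen. Positions are from GENCODE M21 on GRCm38, the build of mm10, and 40 of 40 symbols matched. Shared stretches are exact 50-base matches in the same orientation between annotated transcripts of different genes. Matches to the opposite strand were not searched. Alternatives were other scalings (quantile, median), no filter, genes above the median of the mean value, no trend, title style as a covariate, the G libraries only, other thresholds and leaving out each library. Dropping the filter changed nothing, since it removed 0 genes, and is not counted among the other fits of a gene. Counts of marker lists and Nat8 by fit were added later, and a fit without the 108 genes of fill-in values was chosen after seeing the data. Of the pathway lists, 1 gene was left out and is not reported here.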

Additional observations from a re-analysis of the deposited data

Results flagged for a closer look

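Of 70 genes, the 40 of the set and those that the naming rule takes from outside it, 5 had 1 control library far from the other 3, by more than Dixon's 95% limit for 4 values; chance flags about 1 group in 20, and knockdown groups of 3 were not tested. Prdx1 had its highest control value in control replicate 2, at 11.91, where the other controls reached 11.71. Gpx1 was highest in control replicate 4, at 4.61, where the other controls held fill-in values up to 4.47. Prdx4, a peroxiredoxin of the endoplasmic reticulum, was lowest in control replicate 3, at 6.67, with the next at 6.98. Txnrd1 was lowest in control replicate 1, at 10.31, with the next at 10.54. Bptf was lowest in control replicate 2, at 12.61, with the next at 12.71.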

How the results depend on the processing

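Of the 40 genes 3 were higher and 2 lower. These counts were 1 and 0 when title style was a covariate, 1 and 0 in a fit of the G libraries alone, and at an adjusted p of 0.01 also 1 and 0 (limma; 6, 2 and 6 lower genes at an unadjusted p under 0.05 in these settings). At an adjusted p of 0.1 the count of higher genes was 5. The count of lower genes was 1 among genes above the median of the mean value, where Gsta2 was not tested, and 1 without the intensity trend. Leaving out 1 library gave 1 to 3 higher and 0 to 1 lower genes, with 0 lower without any of the knockdown replicates, control replicate 1 or control replicate 4 (limma; 5 to 7 lower at an unadjusted p under 0.05). Of the genes in the 8 pathway lists 3 were lower; this count was 1 without the trend, 1 with the title covariate, 0 in the G libraries alone and 0 at an adjusted p of 0.01 (limma; 12 and 15 at an unadjusted p under 0.05), 5 among genes above the median of the mean value, 6 without the fill-in genes and 11 at an adjusted p of 0.1. Leaving out 1 library gave 1 to 2 higher pathway genes (2 without control replicate 2) and 0 to 5 lower ones (limma; 0 without knockdown replicate 2, knockdown replicate 3 or control replicate 4, with 13, 14 and 13 at an unadjusted p under 0.05, 2 without knockdown replicate 1, and 5 without control replicate 2). Over all genes 391 passed, 191 with the title covariate and 40 in the G libraries alone. The cause of these differences was not tested, and some of the fits also held fewer libraries or genes. In the 11 settings that could alter a fold change, none of 16 single genes reversed its sign. These were Shroom3, the genes of the set and of the pathway lists that passed, and the smallest-p gene of each role without one. That choice made a reversal less likely. Genes not followed could reverse, as Gstm7 (-0.25 over all libraries, 0.19 in the G libraries) and Gpx3 (-0.06 and 0.14) did. Without counts, the limits set by depth are unknown. No paired analysis was possible because the replicate numbers used here only name libraries in their listed order and tie no animals together; title style was fitted as a covariate instead.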
